A study of Saccharomyces cerevisiae with 8 samples.

Results

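The genes described here encode the proteins of the small (40S) subunit of the cytoplasmic ribosome of Saccharomyces cerevisiae. They were chosen as all non-control spots whose standard gene name is RPS followed by a number and, where there are paralogs, the letter A or B. This gave 56 genes of the 6225 on the array, each measured by 1 probe, in 24 pairs of paralogs and 8 single-copy genes. The series compared yeast of strain CENPK.2-1C in 4 groups of 2 arrays, which its design text calls biological replicates. These were cells with a mutant TFIIB (called M1 in the series) in YPD medium with 4 mM H2O2, control cells in YPD with 4 mM H2O2, the mutant cells in YPD alone and control cells in YPD alone. All were in exponential phase and were collected at an OD600 of 1.0. TFIIB, encoded by SUA7, positions RNA polymerase II at promoters, and the labels used here give neither the change in M1 nor how it was introduced.

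The small subunit binds messenger RNA and holds the decoding centre, where codons are matched to transfer RNAs. Most yeast ribosomal protein genes exist as A and B copies left by an ancient genome duplication, and many of the copies encode nearly the same protein. Their transcription is coordinated by Rap1, Fhl1, Ifh1 and Sfp1 under the control of the TOR and protein kinase A pathways, and in many acute stresses their transcripts fall.

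All arrays lay on 1 slide and were read in 1 scan. The array's median probe gave 6.04 to 9.75 units on the 4 arrays labelled mutant, against 3547 to 6022 units on the 4 control arrays, while the E1A spike-in probes, RNA added in known amount, averaged 526 to 738 units on the arrays labelled mutant and 537 to 742 units on the control arrays. SUA7 itself was well above background on none of the 4 arrays labelled mutant, with 6.08 to 9.71 units, and on all 4 control arrays, with 13788 to 30808 units. Fewer yeast transcripts per cell and less labelled RNA on the array cannot be told apart here, so these arrays are called by their label. Over the 56 genes, the arrays labelled mutant differed from each other by a median of 0.14 with H2O2 and 0.74 without it on the log2 scale, and the control arrays by 0.14 with H2O2 and 0.04 without it. Whether the very similar control arrays are separate cultures was not tested, and p-values measure only the spread between these arrays. Counts of genes called with H2O2 in control cells are also given with these 2 averaged as 1 sample.

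The 56 genes lie on 14 chromosomes, 30 on the forward and 26 on the reverse strand, and 36 have an intron in the coding sequence, per the descriptions in the authors' deposited tables (release R64-1-1). RPS31, for example, spans chrXII:498947-499405 on the forward strand without an intron, RPS9A chrXVI:404950-406044 on the forward strand with 1 intron between 2 coding exons, and RPS29B chrIV:340628-340798 on the reverse strand without an intron. For 8 genes (RPS10A, RPS10B, RPS11A, RPS11B, RPS18A, RPS18B, RPS21A and RPS21B) the probe spans an exon junction. The A and B copies are close in sequence, so a probe may also bind the other copy's transcript, and how much was not tested.

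In control cells, all 56 genes had a higher relative level with H2O2 than without it, and 20 passed the test. The value used is the signal relative to the array's 75th percentile, so that it shows a gene's standing among the other transcripts. In a limma fit of all 4 groups, with Benjamini-Hochberg adjustment over 6045 genes and a call under an adjusted p of 0.05, 20 of 56 genes (35.7%) rose and 0 fell, with 30 at an unadjusted p under 0.05. Over all genes tested, 13.1% rose and 14% fell. The median log2 change of the 56 genes was 0.73, against 0.03 over all genes, and their changes ran from 0.06 for RPS18B to 1.48 for RPS9A. In 55 of the 56, both H2O2 arrays lay above both arrays without it, RPS18B being the exception, against 45.3% of all genes tested.

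The size of this rise depended on the scale. Relative to the E1A spike-in probes the median change was 0.19, with 51 genes above 0 and 5 below, 0 were called (1 at an unadjusted p under 0.05) and 0.48% of all genes were called higher and 15.8% lower. That scale moved all genes down together, to a median of -0.51. The gap between the 56 genes and all genes was 0.70 on both scales. It must be equal, since each scale subtracts the same value from every gene of an array. With the control arrays without H2O2 averaged as 1 sample, 0 of 56 were called (16 at an unadjusted p under 0.05), against 0.629% of all genes called higher and 1.42% lower. With the 4 control arrays fitted alone, 55 were called higher, all but RPS18B, against 31.7% of all genes higher and 26.1% lower. Single arrays decided the count too: it was 6 and 4 without the first and the second control array with H2O2, against 7.33% and 3.61% of all genes called higher. It was 0 and 1 without the first and the second control array without H2O2, against 0.331% and 1.92% of all genes. It was 49 without either of the arrays labelled mutant without H2O2, against 19.8% of all genes.

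**Figure D1:**
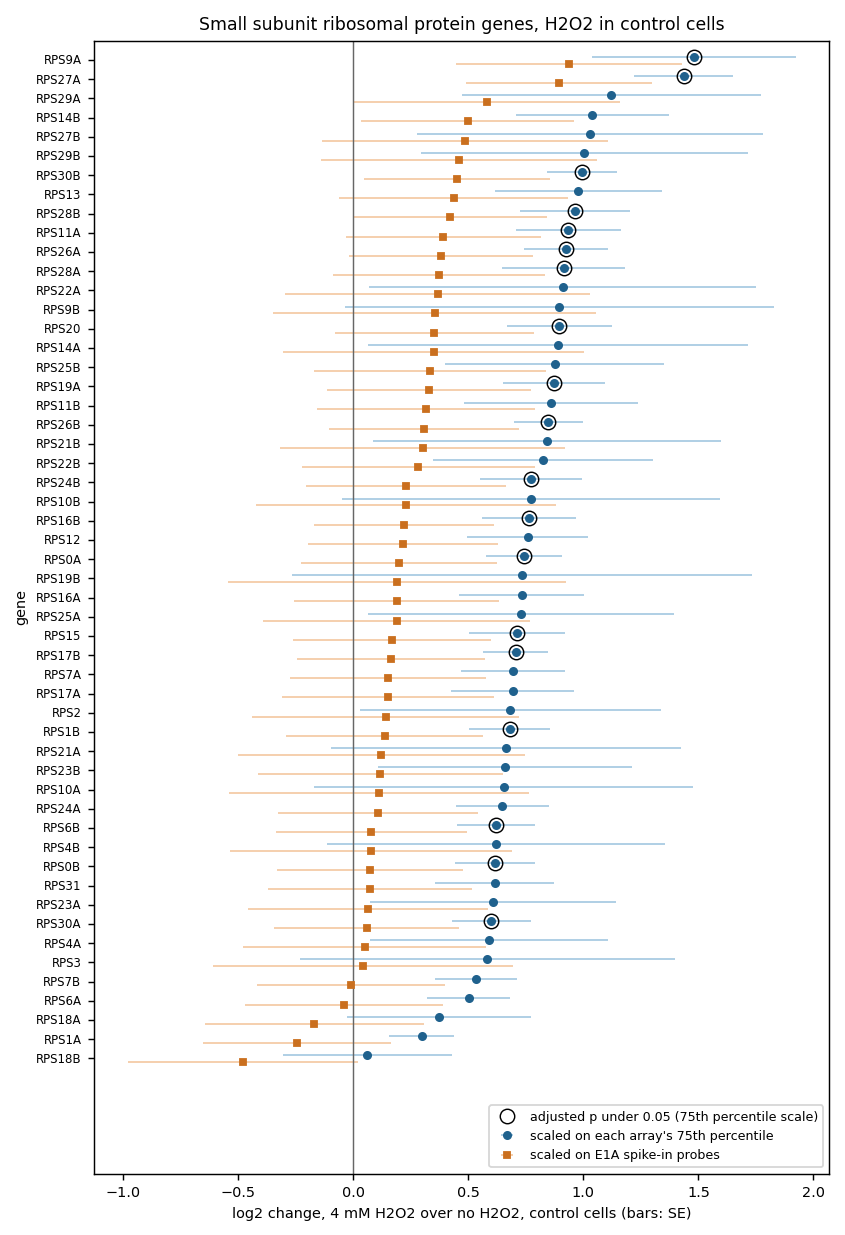
Log2 change with 4 mM H2O2 over no H2O2 in control cells for 53 of the 56 genes, with the standard error as a bar, on the 75th percentile scale (circles) and the spike-in scale (squares). All 53 circles lie above 0, 19 of them are ringed as past the threshold, and 5 squares lie below 0.

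Of the 8 single-copy genes, which have no paralog to carry part of their signal, RPS15 and RPS20 were called. Rps20, a head protein needed for maturation of the small subunit, is encoded by a gene at 4.57 and 4.47 log2 units over the 75th percentile with H2O2, against 3.61 and 3.64 without it. RPS20 changed by 0.89 ± 0.23 (SE, limma, adjusted p = 0.0283), a 1.86-fold rise, and the groups did not overlap. For RPS15, whose protein is needed to export the small subunit from the nucleus, the values were 4.97 and 4.84 with H2O2, against 4.17 and 4.22 without it. RPS15 changed by 0.71 ± 0.21 (SE, limma, adjusted p = 0.0440), again without overlap.

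The other 6 single-copy genes had changes of 0.58 to 0.98 that did not pass the threshold. RPS13, for a protein of the body, had 4.22 and 4.33 with H2O2, against 3.31 and 3.29 without it, a change of 0.98 ± 0.36 (SE, limma, adjusted p = 0.0896). RPS2 and RPS3 encode proteins at the messenger RNA entry channel. RPS2 had 5.74 and 5.42 with H2O2, against 4.89 and 4.91 without it, a change of 0.68, and RPS3 had 5.50 and 5.33 with H2O2, against 4.83 in both without it, a change of 0.58. RPS12 changed by 0.76 and RPS31, which encodes a ubiquitin fusion, by 0.61. In each of the 6 both H2O2 arrays lay above both arrays without it.

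The standard errors of RPS2 and RPS3 were 0.66 and 0.82, larger than those of RPS15 and RPS20, and with the control arrays alone they were 0.13 and 0.08. The fit pools the spread of all 4 groups, and between the arrays labelled mutant without H2O2 these genes differed 4.71-fold and 7.31-fold, against 1.33-fold for RPS15. Of the 20 genes called, 19 had under 100 units on at least 1 array labelled mutant and 1 (RPS0B) had at least 100 on all 4. The median change was 0.73 both in the 17 genes with at least 100 units on all 4 of those arrays and in the other 39, and the median standard error was 0.76 in the 17 and 0.23 in the 39.

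The largest rises called in the fit of all 4 groups were in 1 copy of a pair, RPS9A and RPS27A. With the control arrays fitted alone their partners were called too (limma, adjusted p = 0.00636 for RPS9B and 0.00588 for RPS27B). The rise was thus not confined to 1 copy. RPS9A, for a protein near the messenger RNA entry, had 0.79 and 1.65 with H2O2, against -0.35 and -0.18 without it. It rose by 1.48 ± 0.44 (SE, limma, adjusted p = 0.0468), 2.79-fold, and its 2 H2O2 arrays lay far apart. Its partner RPS9B had 4.32 and 4.46 with H2O2, against 3.45 and 3.54 without it, a change of 0.90 (adjusted p = 0.523 in limma).

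RPS27A, for a zinc-binding protein, had 1.49 and 1.83 with H2O2, against 0.17 and 0.28 without it. It rose by 1.44 ± 0.22 (SE, limma, adjusted p = 0.00598), 2.70-fold. RPS27B had 4.45 and 4.53 with H2O2, against 3.45 and 3.48 without it, a change of 1.03 (adjusted p = 0.357 in limma). All 4 genes of these pairs had both H2O2 arrays above both others.

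In the fit of all 4 groups both copies were called in the RPS0, RPS26, RPS28 and RPS30 pairs. Rps26 lies at the messenger RNA exit channel and is loaded by the chaperone Tsr2: RPS26A rose by 0.92 and RPS26B by 0.85. RPS28A rose by 0.91 and RPS28B by 0.96. Rps30 lies near the decoding centre, where RPS30B had 1.61 and 1.77 with H2O2, against 0.65 and 0.74 without it, and RPS30A had 1.76 and 1.97 with H2O2, against 1.21 and 1.32 without it. RPS30B rose by 0.99 ± 0.15 (SE, limma, adjusted p = 0.00620) and RPS30A by 0.60 ± 0.17 (SE, limma, adjusted p = 0.0414). RPS11A rose by 0.93, and RPS11B, at a change of 0.86, did not pass (adjusted p = 0.138 in limma). With the control arrays fitted alone RPS11B passed (limma, adjusted p = 0.00916).

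The pair RPS18 stood lowest. Rps18 sits in the head and forms a bridge to the large subunit. RPS18B had 3.03 and 3.12 with H2O2, against 2.98 and 3.05 without it, a change of 0.06 ± 0.37 (SE, limma, adjusted p = 0.914), and the groups overlapped. RPS18A had 2.61 and 2.77 with H2O2, against 2.31 and 2.33 without it, a change of 0.37 ± 0.40 (SE, limma, adjusted p = 0.535).

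Genes around the small subunit were counted in the same comparison, in which 13.1% of all genes rose and 14% fell. Of 18 late assembly factors of the subunit, 13 rose and 0 fell, with a median change of 1.09. The methyltransferase gene BUD23 rose by 1.37, SLX9 by 1.55, ENP1 by 1.41 and LTV1 by 1.17. Of 8 dedicated chaperone genes, 5 rose and 0 fell (median 0.93), among them TSR2, the chaperone of Rps26, by 1.63, and YAR1, the chaperone of Rps3, by 0.89. SYO1 rose by 1.45, RRB1 by 1.18 and ACL4 by 0.97, all of which serve large subunit proteins. The chaperone list thus mixes both subunits, and its count and median do not describe chaperones of small subunit proteins alone.

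Of 25 regulators of ribosomal protein genes, 7 rose and 2 fell (median 0.22). The coactivator gene IFH1 rose by 1.47, RAP1 by 0.82 and UTP22, for a subunit of the CURI complex that binds Ifh1, by 1.28. TOD6, a repressor gene of ribosome biogenesis, rose by 2.01. The genes that fell, named after their values were seen, were its paralog DOT6, by 1.11, and CRF1, a corepressor gene, by 0.77. The 80 large subunit genes had a median change of 0.74, with 30 rising and 0 falling. Of 6 genes listed for their ties to the ribosome or to ubiquitin, UBI4, the polyubiquitin gene, fell by 1.82, and RPL40A, a large subunit gene that is also among the 80, rose by 0.86. Of 16 genes that rise in many stresses, 0 rose and 14 fell (median -2.82), such as HSP12 by 3.52.

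On the spike-in scale 1 of the genes of these lists was called higher (TOD6, at 1.47), and the medians of the late assembly factors, the chaperones and the regulators were 0.54, 0.39 and -0.32. The stress list had 15 genes falling on that scale. With the control arrays without H2O2 averaged, most of these calls were lost: 2 of the 18 late assembly factors (SLX9 and BUD23), 1 of the 8 chaperone genes (TSR2), 0 of the 25 regulators, 0 of the 80 large subunit genes and 0 of the 6 other genes were called, and 4 of the 16 stress genes fell. At an unadjusted p under 0.05 in that limma fit were 13 of the late assembly factors, 5 of the chaperone genes, 8 of the regulators, 25 of the large subunit genes, 2 of the 6 and 14 of the stress genes.

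On the arrays labelled mutant the 56 genes split widely. On the spike-in scale all 56 fell in both media against control arrays, as 99.4% of all genes did with H2O2 and 99.6% without it, while 0.0662% and 0.0496% of all genes rose. The median log2 change of the 56 was -12.75 with H2O2, against -9.41 over all genes, and -12.90 without H2O2, against -10.19. On the 75th percentile scale, 17 were called higher and 33 lower with H2O2, against 51.7% and 28.3% of all genes, and 15 higher and 33 lower without it, against 50.5% and 28.8%. The 75th percentile itself was 9.87 to 14.5 units on the arrays labelled mutant, against 9185 to 15424 units on control arrays. A member called higher on that scale still had a lower signal.

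Well above background on all 4 arrays labelled mutant were 30 of the 56 genes, or 53.6%, against 17.7% of all genes and 57.3% of 75 large subunit genes with an RPL name. On none of the 4 were 13, or 23.2%, against 51% of all genes and 22.7% of those large subunit genes. At least 100 units on all 4, a limit set after the values were seen, was reached by 17 genes (30.4%), against 1.96% of all genes and 20% of the large subunit genes, a difference that was not tested. The 17 kept a median of 12.5% of their control signal with H2O2 and 3.78% without it, and the other 39 kept a median of 0.00789% with H2O2 and 0.00616% without it. These shares use the same signals as the limit, so a gap between the 17 and the 39 follows from the split. Of the 17, 10 have an intron, and 36 of all 56 do.

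**Figure D2:**
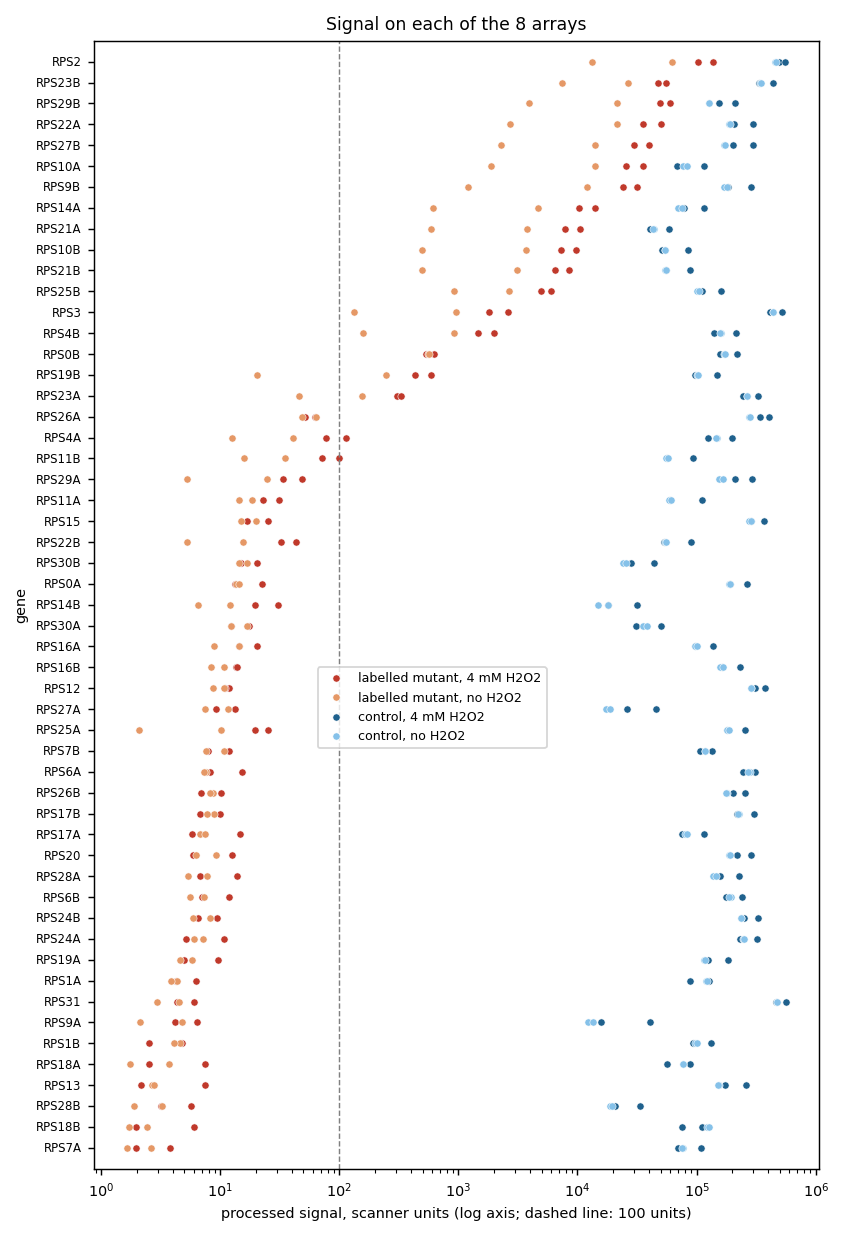
Processed signal of 53 of the 56 genes on each of the 8 arrays, on a log axis in scanner units, ordered by the mean log2 signal on the arrays labelled mutant, with a dashed line at 100 units. On control arrays the genes lie between 12142 and 563646 units, and on arrays labelled mutant between 1.65 and 136780 units.

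The brightest was RPS2, with 103262 and 136780 units on arrays labelled mutant with H2O2, against 490267 and 553434 units on control arrays with H2O2. Without H2O2 it had 13135 and 61890 units on arrays labelled mutant, against 457628 and 461635 units on control arrays. It fell by 2.45 with H2O2 and by 4.30 without it on the log2 spike-in scale (limma, adjusted p = 0.000342 and 1.89e-07), and no array labelled mutant reached a control array.

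RPS29B, for a small zinc-binding head protein, had 48884 and 60208 units on arrays labelled mutant with H2O2, against 153830 and 209706 units on control arrays with H2O2. Without H2O2 it had 3905 and 21525 units on arrays labelled mutant, against 126281 and 127533 units on control arrays. RPS10A, for a head protein, had 25694 and 35799 units on arrays labelled mutant with H2O2, against 68109 and 114547 units on control arrays. These were the highest shares of control signal, 33.7% for RPS10A and 30.0% for RPS29B with H2O2.

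RPS23B, for a protein of the decoding centre, kept 13.3% of its control signal with H2O2 and 4.92% without it. RPS22A kept 17.0% and 6.45%, RPS27B 13.9% and 4.80%, RPS9B 11.9% and 3.78%, RPS14A 12.6% and 3.60%, and RPS21A 18.4% and 4.95%, each with H2O2 and then without it. In all of these the groups did not overlap.

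RPS3 was lower. It had 1805 and 2585 units on arrays labelled mutant with H2O2, against 415871 and 518508 units on control arrays.

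At the other end was RPS31, well above background on none of the arrays labelled mutant. It had 4.35 and 6.04 units there with H2O2, against 464379 and 563646 units on control arrays with H2O2, and 2.92 and 4.52 units without H2O2, against 473526 and 472847 units. Its signal was at least 69744-fold lower with H2O2 and at least 76300-fold lower without it on the spike-in scale. Such a bound sets the control mean against a floor on each array labelled mutant, which is the dimmest signal that still counted as well above background there, or the probe's own signal where that is higher.

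On the 75th percentile scale the same bounds for RPS31 were at least 61.6-fold lower with H2O2 and at least 42.2-fold lower without it. RPS13 was at least 25.4-fold lower on that scale with H2O2 and at least 13.5-fold lower without it, and RPS24A, for a protein of the body, at least 31.2-fold and at least 21.9-fold. RPS24B was at least 34.2-fold lower and RPS1B and RPS7A at least 13.3-fold and 10.5-fold lower with H2O2, and RPS6A and RPS18B at least 24.0-fold and 11.1-fold lower without it.

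Between media on the arrays labelled mutant, 0 of the 56 genes were called on either scale, with 26 at an unadjusted p under 0.05 on the 75th percentile scale and 24 on the spike-in scale. Over all genes 0.0331% were called higher on the 75th percentile scale and 0.0165% on the spike-in scale. The 2 arrays without H2O2 were far apart: in all 17 bright genes the second exceeded the first, by a median of 6.23-fold and up to 9.96-fold, whereas with H2O2 the second exceeded the first by a median of 1.32-fold. In 16 of the 17 both H2O2 arrays lay above both arrays without it in units, as in 62.3% of the 122 genes with at least 100 units on all 4 arrays and in 26.4% of all genes tested. RPS0B was the exception, with 539 and 622 units with H2O2, against 556 and 566 units without it. RPS14A, for a platform protein, had 10310 and 14051 units with H2O2, against 615 and 4621 units without it. With the first of the arrays without H2O2 left out, 10 of the 56 were called higher, against 1.99% of all genes, and with the second left out 25 were, against 3.31%.

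The H2O2 change on arrays labelled mutant was lower than that on control arrays in 6 of the 56 genes and higher in 0 on the 75th percentile scale, with 14 at an unadjusted p under 0.05, against 5.57% of all genes lower and 6% higher (limma, test of the difference itself). Of the 6, RPS26A and RPS30B were well above background on all 4 arrays labelled mutant, though RPS30B had only 14.5 to 20.2 units there. RPS26B and RPS27A were well above background on 2 of the 4, RPS17B on 1 and RPS1B on none. The H2O2 change of these 4 genes and of RPS30B there rests on signal near the background. On the spike-in scale 0 were called (21 at an unadjusted p under 0.05), against 7.56% of all genes higher and 0.0496% lower. The direction depended on the scale. The difference was above 0 in 42 genes and below in 14 on the spike-in scale (median 0.43, against 0.69 over all genes). On the 75th percentile scale it was above 0 in 26 and below in 30 (median -0.25, against 0.02).

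Paralogs could be set against each other within each array, since the log2 ratio of A over B is free of the array's scaling. Of the 24 pairs, 10 had 1 copy with at least 100 units on all arrays labelled mutant and 1 without, 2 had both (RPS10 and RPS21), and 12 had neither. Pairs with a bright A copy included RPS14 and RPS22, and the B copy was bright in RPS0, RPS4, RPS9, RPS23, RPS25, RPS27 and RPS29. The ratio differed between arrays labelled mutant and control arrays in 21 of 24 pairs with H2O2 (86.7% of all 60 A/B pairs on the array) and in 18 of 24 without H2O2 (78.3%), by limma over the 60 pairs at an adjusted p under 0.05. Both copies were well above background on both arrays labelled mutant in 13 of the pairs with H2O2, of which 13 were called, and in 8 without H2O2, of which 7 were called. In the other pairs the ratio rests on signal near the background of at least 1 array. The 13 include dim pairs too, whose ratios also rest on low signal. With H2O2, RPS16A and RPS16B had 13.6 to 20.4 units and RPS30A and RPS30B 12.3 to 20.2 units on the arrays labelled mutant. The 75th percentile of those arrays was 9.95 and 14.5 units.

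The RPS29 pair had the widest change among the pairs measured with H2O2. Its log2 ratio of A over B was -10.51 and -10.28 on arrays labelled mutant with H2O2, against 0.45 and 0.48 on control arrays with H2O2. Without H2O2 it was -9.53 and -9.75 on arrays labelled mutant, against 0.29 and 0.40 on control arrays. RPS29A had 33.4 and 48.3 units on arrays labelled mutant with H2O2, beside the 48884 and 60208 units of RPS29B given above, and without H2O2 it was well above background on 1 of the 2 arrays. The ratio changed by -10.86 with H2O2 (limma, adjusted p = 2.00e-07).

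Other pairs with both copies measured with H2O2 also moved far. RPS25 changed by -8.62 there, RPS23 by -6.90, RPS22 by 8.29 and RPS14 by 6.94, and RPS23, measured without H2O2 too, by -7.00 in that medium. The sizes for RPS25, RPS14 and RPS22 also rest on low signal of the dimmer copy. On the arrays labelled mutant with H2O2, RPS25A had 19.5 and 25.2 units, RPS14B 19.7 and 30.4 and RPS22B 32.7 and 43.1. The pairs with both copies bright moved less: RPS10 by 1.42 with H2O2 and 1.36 without it, and RPS21 by 0.80 and 0.59. These ratios use the same signals as the limit for bright copies. A gap to pairs with a bright and a dim copy follows in part from that limit, so no conclusion is drawn from it. RPS9A was well above background on none of the 4 arrays labelled mutant and RPS27A on 2, so no size is given for the ratios of RPS9 and RPS27, and neither copy of RPS24 was above background on any of them.

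**Figure D3:**
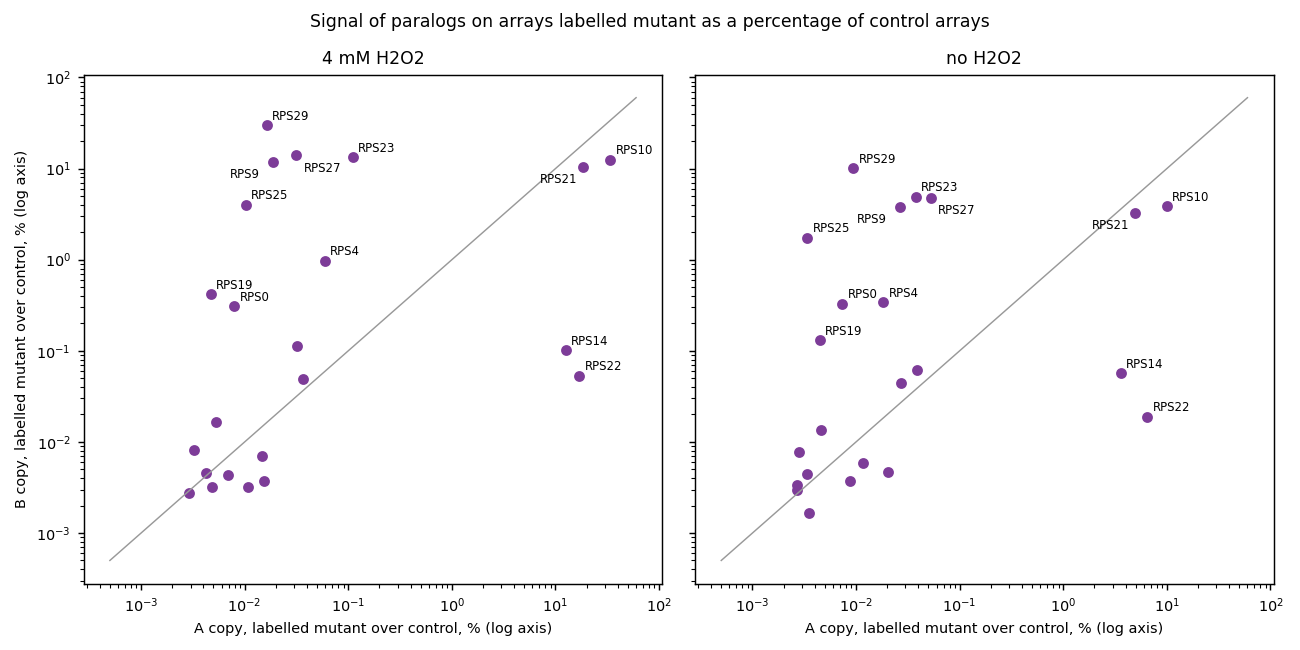
Signal on arrays labelled mutant as a percentage of the signal on control arrays, for the A copy (horizontal) and the B copy (vertical) of 23 of the 24 pairs, on log axes, with H2O2 (left) and without it (right). RPS29 lies far above the line of equal shares, at 30.0% for the B copy with H2O2, RPS22 and RPS14 lie far below it, and RPS10 and RPS21 lie near it.

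In control cells few pair ratios passed the test for a change with H2O2. In the fit of all arrays 0 of 24 pairs were called, as were 0% of the 60 pairs, and 1 (RPS30) had an unadjusted p under 0.05. The median size of the change was 0.12 over the 24 pairs. The widest interval, of RPS27, ran from -2.14 to 2.96 around a change of 0.41, so the fit did not resolve changes of that size.

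RPS30 had a log2 ratio of A over B of 0.16 and 0.20 with H2O2, against 0.56 and 0.58 without it. It changed by -0.39 (95% interval -0.74 to -0.05, limma, adjusted p = 0.458). RPS1, for a platform protein near the messenger RNA exit, had -0.08 and -0.07 with H2O2, against 0.33 and 0.29 without it, a change of -0.38 (95% interval -0.80 to 0.03). In both pairs the control groups did not overlap, the B copy gaining on the A copy. That does not set them apart, since the groups did not overlap in other pairs either, among them RPS21 and RPS29. RPS0, for example, had 0.27 and 0.27 with H2O2, against 0.14 and 0.14 without it.

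With the control arrays fitted alone, 4 of the 24 pairs were called, against 35% of the 60 pairs: RPS30 and RPS1 (both limma, adjusted p = 0.00495), RPS18 (adjusted p = 0.0120) and RPS27 (adjusted p = 0.0380). RPS18 had -0.42 and -0.35 with H2O2, against -0.67 and -0.72 without it, and RPS27 had -2.96 and -2.70 with H2O2, against -3.28 and -3.20 without it, and both were named after their values were seen. On the arrays labelled mutant, RPS29 was the 1 pair called with H2O2 over none (change -0.76, limma, adjusted p = 0.0451), against 10% of the 60 pairs, with RPS29A not well above background on 1 of the arrays without H2O2. The change of ratio with H2O2 differed between arrays labelled mutant and control arrays in 0 of 24 pairs (4 at an unadjusted p under 0.05, limma), against 3.33% of the 60 pairs.

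**Figure D4:**
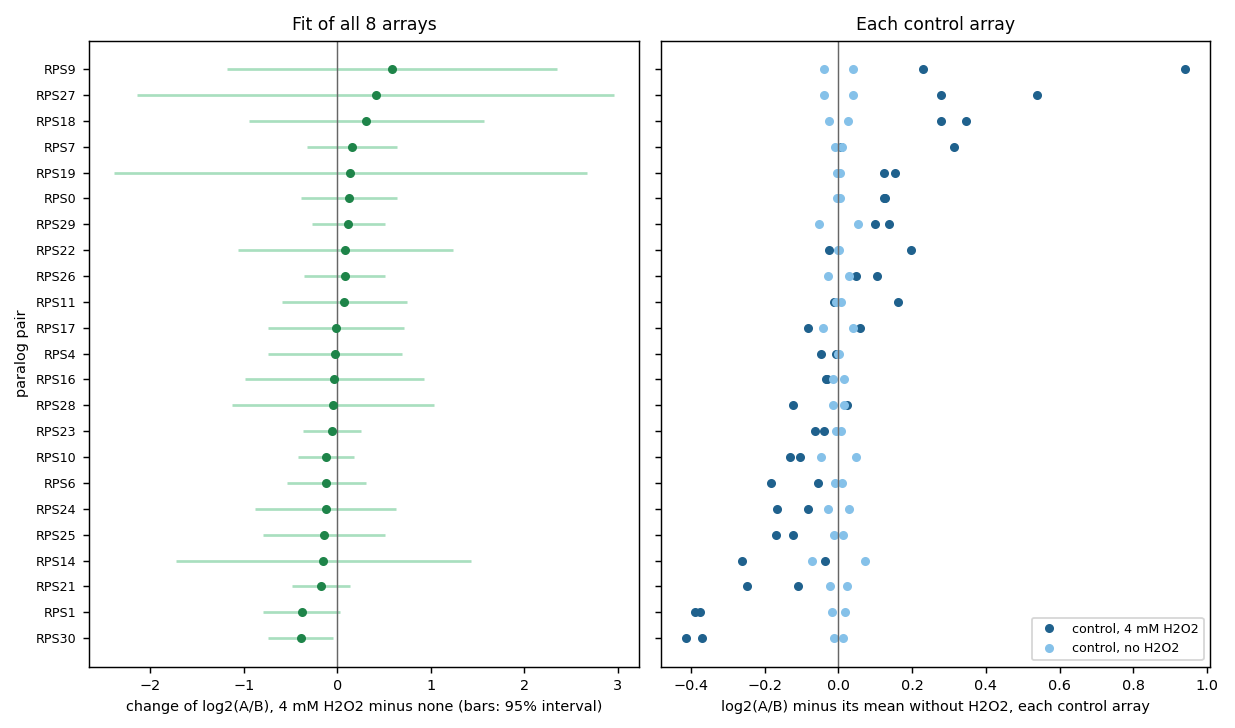
Change of the log2 ratio of the A over the B copy with H2O2 in control cells for 23 of the 24 pairs, with the 95% interval in the fit of all arrays (left), and the ratio on each control array minus its mean without H2O2 (right). RPS30 and RPS1 lie lowest, at -0.39 and -0.38, and RPS9 lies highest, at 0.58.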

How the data were processed

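Spot intensity values were made by the authors with Feature Extraction 10.7.1.1, per the file headers, from Cy3-labelled total RNA, per the labels' protocols. The processed signal is background-subtracted. The authors' deposited tables, 1 per medium, hold normalized log2 values (used as an alternative) in an experiment named as quantile, and 8 raw per-sample columns that were not used here.

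Control spots (536 per array) and outlier spots (12 in all) were left out, log2 signals were averaged over a probe's spots, and the 75th percentile of the array was subtracted. The gene's brightest probe was taken (29 genes have several). The test covered 6045 genes, all 56 members among them, that passed the scanner's background flag in both replicates of some group. A single limma fit (version 3.58.1, R 4.3.3) held all 4 groups (4 residual and 3.10 prior degrees of freedom) and gave two-sided p-values with Benjamini-Hochberg adjustment per comparison. The A/B pairs had a fit of their own. The alternative spike-in scale is the mean of 7 of 10 E1A probes with at least 100 units on all 8 arrays, chosen after seeing the data. With 2 arrays in each group, precision is limited by their number. Of 6225 genes, 5720 were named by a RefSeq table. The fits were tested on simulated data.

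The rule for named genes took SUA7, the single-copy members, the largest called changes with H2O2 in control cells with their other copies, up to 10 of the brightest members and 6 largest falls on arrays labelled mutant (no size is given for RPS25A, not well above background on 1 array), and the pairs called or of smallest p. The members and the other gene lists were chosen with earlier results of these data known. The planned normexp step used median signals and an offset of 50. Some members are counted in the totals but not reported here by name or drawn.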

Additional observations from a re-analysis of the deposited data

Results flagged for a closer look

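For 6 genes the H2O2 change on arrays labelled mutant differed from that on control arrays by a test of the difference itself (limma, adjusted p = 0.0295 to 0.0393, on the 75th percentile scale), against 5.57% of all genes lower and 6% higher. The difference, arrays labelled mutant minus control arrays in log2, was -1.39 for RPS27A, -1.21 for RPS1B, -1.11 for RPS26A, -1.06 for RPS26B, -1.04 for RPS30B and -0.93 for RPS17B. Of these, RPS26A and RPS30B were well above background on all 4 arrays labelled mutant, RPS26B and RPS27A on 2, RPS17B on 1 and RPS1B on none. RPS30B had only 14.5 to 20.2 units on those arrays. The values of RPS30B, RPS26B, RPS27A, RPS17B and RPS1B rest on signal near the background. On the spike-in scale 0 were called, and with the control arrays without H2O2 averaged 0 were called (6 at an unadjusted p under 0.05). On the arrays labelled mutant RPS26A had 51.7 and 62.0 units with H2O2, against 63.9 and 48.6 units without it, and the other 5 genes had under 21 units on each of those arrays. What part signal near the background has in these differences was not tested.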

How the results depend on the processing

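The count of 20 genes higher with H2O2 in control cells was 6 under quantile normalization, 1 with all 10 E1A probes, 0 with the 7 E1A probes with signal, 37 with normexp, 8 with well-measured genes alone (called above background on every array), 0 with the control arrays without H2O2 averaged and 55 with only the groups compared. Leaving out 1 array gave 0 to 49: 6 and 4 without control H2O2 replicates 1 and 2, 0 and 1 without control replicates 1 and 2 in YPD alone, and 49 without either array labelled mutant in YPD alone. The 17 genes higher and 33 lower on arrays labelled mutant with H2O2 became 0 and 55 with 10 E1A probes, and 0 and 56 with 7, and 9 were lower with well-measured genes alone. Leaving out 1 array gave 16 to 18 higher and 33 to 35 lower. Without H2O2, the 15 higher and 33 lower became 0 and 56 with either E1A set, 9 were lower with well-measured genes alone, and leaving out 1 array gave 15 to 18 higher and 32 to 38 lower. The count of 0 genes higher with H2O2 on arrays labelled mutant ran from 0 to 25 with 1 array left out. The 6 genes with a lower H2O2 change became 0 under quantile normalization, both E1A sets, the 75th percentile taken over the well-measured genes and averaged controls, and 34 with normexp. Leaving out 1 array gave 0 to 10 lower and 0 to 23 higher, with 23 without replicate 2 labelled mutant in YPD alone. The count of 0 pairs changed with H2O2 in control cells became 3 with normexp, 4 with only the groups compared and 0 to 1 with 1 array left out. The well-measured genes hold 30 of the 56 members, so their counts are out of 30. The causes of the shifts in these counts were not tested.

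Deviations of same-numbered arrays correlated at 0.21 between the control arrays with and without H2O2. Where an array labelled mutant was involved, they correlated at -0.07 to 0.02. Most probes on those arrays were not well above background, so these values cannot decide whether replicate numbers pair the samples. With the replicate number as a block, 16 genes were higher with H2O2 in control cells and 3 had a lower H2O2 change.

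The direction turned for bright members against control. With 10 and then 7 E1A probes, the log2 change with H2O2 was -2.25 and -2.45 for RPS2, -3.01 and -3.22 for RPS23B, -1.84 and -2.05 for RPS29B, -2.67 and -2.87 for RPS22A, -2.94 and -3.15 for RPS27B, -1.66 and -1.86 for RPS10A, -3.16 and -3.37 for RPS9B, -3.09 and -3.30 for RPS14A, and -2.55 and -2.75 for RPS21A. Without H2O2 it was -3.92 and -4.30 for RPS2, -4.53 and -4.91 for RPS23B, -3.70 and -4.08 for RPS29B, -4.53 and -4.90 for RPS22A, -4.82 and -5.20 for RPS27B, -3.87 and -4.24 for RPS10A, -5.43 and -5.81 for RPS9B, -5.34 and -5.71 for RPS14A, and -4.79 and -5.16 for RPS21A. In the authors' normalized values RPS2 was at -0.0030 with H2O2 and -0.39 without it. With well-measured genes alone the members' median change turned to 2.62 with H2O2 and 2.05 without it. That set holds only the 30 members well above background on all 4 arrays labelled mutant. The filter itself favours members bright there, so no conclusion is drawn from the turn. The RPS10 pair ratio in control cells changed by 0.069 under quantile normalization. Signal near the background limits most values on arrays labelled mutant outside the 17 bright genes. Exceptions with H2O2 include RPS19B, at 430 and 587 units, and RPS23A, at 305 and 331 units. Without H2O2 these had 20.5 and 246 units and 46.0 and 154 units.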
